A study of Mus musculus with 18 samples.

Results

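Potassium and sodium channel genes were followed in 4 RNA-seq comparisons of newborn mouse brain tissue and cultured neural progenitors. A gene was included where its symbol had the form of a potassium channel gene (Kcn, a family letter or letters and a number) or a voltage-gated sodium channel gene (Scn, a number and a or b), and 2 symbols, *Kcnj13* and *Kcnk9*, were left out. This gave 104 genes over the 4 tables, of which 103 of 23138 named genes were in the hippocampal table, 103 of 23398 in the neurosphere table, and 104 of 54429 in the cortical table and in the *Rnf2* table. *Scn2a* is absent from the first pair of tables under that symbol. There it appears under its older name *Scn2a1*, which the rule does not take, and its values are given separately.

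All tissue is from mice at postnatal day 0 (P0), and the neurospheres were started from P0 hippocampi and kept in culture for 3 generations. KDM2B is a chromatin protein that binds unmethylated CG dinucleotides through its CxxC zinc finger and recruits a variant Polycomb repressive complex, and *Rnf2* encodes RING1B, the ubiquitin ligase of that complex. In the *Kdm2b* *Emx1*-∆CxxC conditional knockout (cKO), *Emx1*-Cre deletes the floxed exon that encodes the zinc finger, and the controls were *Kdm2b* fl/+ or *Kdm2b* fl/fl, which the labels do not tell apart. Hippocampi (3 control and 3 cKO libraries), neurospheres grown from hippocampal progenitors with FGF2 and EGF (2 and 2) and cortices (2 and 2) were compared. In the *Rnf2* comparison, hippocampi of *Rnf2* fl/+ or *Rnf2* fl/fl controls (2 libraries) were compared with *Rnf2* *Emx1*-cKO hippocampi (2 libraries). *Emx1*-Cre acts in progenitors of the dorsal telencephalon, so cells of other origin in the tissue (interneurons, microglia, vessels, thalamic cells) keep the gene. The labels do not say whether the libraries of a group came from separate animals, so the p-values below measure the spread between these libraries.

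Potassium channels let potassium leave the cell and set the resting potential, the shape of the action potential and the firing rate. The family holds voltage-gated pore-forming subunits (Kv), silent subunits that only work inside Kv assemblies, auxiliary subunits (Kcnab, Kcnip, Kcne), calcium- and sodium-activated channels, inward rectifiers (Kcnj) and two-pore leak channels (Kcnk). Voltage-gated sodium channels carry the rising phase of the action potential, with pore-forming alpha subunits (*Scn1a* to *Scn11a*) and beta subunits (*Scn3b* among them). In newborn brain many of these genes are rising towards their adult level in neurons, while *Kcnj10* and *Kcnj16* are best known from glia, where they clear potassium from around active neurons.

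The unit is FPKM, the fragments of a transcript divided by its length and by the library's mapped fragments, so that genes of a table can be compared. The 4 tables were normalized separately, so levels of different tables are only set side by side. The test was limma on log2(FPKM + 1), over every gene whose mean in the comparison reached 0.5 FPKM. Adding 1 makes the fold changes of low genes smaller than they are. Genes called higher or lower in cKO had a log2 fold change beyond 0.4 in either direction and an unadjusted p under 0.05, and adjusted p-values cover all genes of a comparison. The tests covered 76 of 103 channel genes in hippocampi, 48 of 103 in neurospheres, 65 of 104 in cortices and 73 of 104 in *Rnf2* hippocampi, and 42 were tested in all 4. A further 23 were tested in none, among them *Scn4a*, *Scn10a* and *Scn11a*, sodium channel genes best known from muscle and sensory neurons, *Scn4b*, and *Kcnj1*, *Kcnj15*, *Kcna10* and *Kcnv2*.

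The total FPKM of a library ran from 363633 to 383249 in hippocampi, 261406 to 279902 in cortices and 261615 to 271513 in *Rnf2* hippocampi. Among neurospheres control library 1 stood apart, with 855276 FPKM against 452580 to 522964 in the other 3, of which 29.3% lay in entries with no gene name and 15.9% in *Mir6236*. Reads on genes could be recovered for cortices (18480515 to 21905224 per library) and *Rnf2* hippocampi (14654894 to 16334420). They could not be for hippocampi and neurospheres, so the mapped depth of each of those libraries is unknown. *Kdm2b* over the whole gene, which does not separate the floxed exon, was at 29.4 ± 2.15 FPKM in control hippocampi and 27.2 ± 0.992 FPKM with the cKO (SD, n = 3 each), and *Rnf2* was at 31.5 ± 1.02 and 28.1 ± 0.494 FPKM in *Rnf2* control and cKO hippocampi (SD, n = 2 each). Neither value shows the deletion. *Xist*, the transcript of female cells, was at 153.8 FPKM in cKO hippocampus library 1 and at most 0.0732 FPKM in the other 5, and it was also near 0 in neurosphere cKO library 1 (0.361 FPKM) and cortical control library 1 (0.0177 FPKM) only, so the sexes are not balanced between these groups.

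The control hippocampus was led by *Scn3b*, a sodium channel beta subunit, at 57.5 ± 4.11 FPKM (SD, n = 3). *Kcnmb4*, the neuronal BK channel beta subunit, was at 40.8 ± 1.998 FPKM and the leak channel *Kcnk1* at 38.0 ± 3.88 FPKM. *Kcnd2*, the dendritic A-type channel, was at 27.9 ± 2.22 FPKM. In the *Rnf2* controls *Scn3b* (47.9 ± 4.52 FPKM, SD, n = 2) and *Kcnd2* (25.7 ± 3.96 FPKM) were the most abundant, and in control cortex *Scn3b* led with 31.2 ± 0.747 FPKM. The high level of *Kcnmb4* was not seen in these tables. Its mean over control and cKO libraries was 2.201 FPKM in *Rnf2* hippocampi and 2.554 FPKM in cortices. Exons of *Kcnmb4* share bases with genes on the opposite strand, and the cause of the gap between tables was not tested. Neurospheres had another order. *Kcnip3*, a calcium-binding Kv auxiliary subunit, led with 148.8 ± 8.66 FPKM (SD, n = 2), *Kcnd2* followed with 55.1 ± 5.15 FPKM, and *Kcnj10* was at 38.7 ± 3.38 FPKM. The counts of channel genes with a control mean of at least 10 FPKM were 19 in hippocampi, 14 in neurospheres, 5 in cortices and 8 in *Rnf2* hippocampi.

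Because the deleted zinc finger binds CG dinucleotides, the promoters of 4 genes on which the results below turn are shown with every CG in capitals, 5′ to 3′ on the gene's strand, from 250 bases before to 50 bases after the RefSeq start (GRCm38.p6). *Kcnd2* (chr6:21215096-21215395, plus strand, 26 CG) fell in hippocampi and *Kcnj10* (chr1:172340960-172341259, plus strand, 21 CG) in neurospheres. *Kcnj16* (chr11:110967783-110968082, plus strand, 3 CG) fell in both and *Kcnj4* (chr15:79505192-79505491, minus strand, 41 CG) rose in neurospheres.
Kcnd2: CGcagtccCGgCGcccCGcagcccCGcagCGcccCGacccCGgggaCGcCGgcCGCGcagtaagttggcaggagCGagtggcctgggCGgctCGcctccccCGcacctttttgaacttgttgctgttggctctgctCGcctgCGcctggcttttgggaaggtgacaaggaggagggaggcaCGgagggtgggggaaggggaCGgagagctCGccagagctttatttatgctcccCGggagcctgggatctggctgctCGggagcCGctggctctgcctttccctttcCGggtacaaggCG
Kcnj10: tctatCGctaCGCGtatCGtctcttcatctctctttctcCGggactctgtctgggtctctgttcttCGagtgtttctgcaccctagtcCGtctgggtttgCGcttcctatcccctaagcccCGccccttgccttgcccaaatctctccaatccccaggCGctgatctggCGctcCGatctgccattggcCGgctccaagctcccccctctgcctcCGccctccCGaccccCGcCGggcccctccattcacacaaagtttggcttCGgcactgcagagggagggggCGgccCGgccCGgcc
Kcnj16: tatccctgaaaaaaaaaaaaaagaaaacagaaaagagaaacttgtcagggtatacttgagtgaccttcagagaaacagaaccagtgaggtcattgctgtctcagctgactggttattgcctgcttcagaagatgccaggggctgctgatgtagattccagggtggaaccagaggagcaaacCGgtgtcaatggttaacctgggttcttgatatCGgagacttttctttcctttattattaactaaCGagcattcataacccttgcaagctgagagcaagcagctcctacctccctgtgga
Kcnj4: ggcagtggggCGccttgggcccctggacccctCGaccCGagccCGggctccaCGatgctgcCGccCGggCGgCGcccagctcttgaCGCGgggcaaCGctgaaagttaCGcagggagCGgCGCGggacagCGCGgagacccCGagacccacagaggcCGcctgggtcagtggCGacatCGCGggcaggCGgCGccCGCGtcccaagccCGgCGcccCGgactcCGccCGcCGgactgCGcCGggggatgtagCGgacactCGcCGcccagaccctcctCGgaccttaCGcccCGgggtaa
CG reads the same on both strands. A RefSeq promoter within 1000 bases of the deposited gene start was found for 70 of the 104 genes, with a median of 10 CG and 20 or more in 34.3% of them. Over all 32851 promoters of this length the median was 7, with 20 or more in 26.5% and at least 1 in 94.6%. Of the neurosphere genes described below, the 7 higher ones with a promoter had a median of 25 CG and the 7 lower ones a median of 17, with quartiles of 15 to 39 and 8 to 19.5. All 29 tested there with a promoter had a median of 17 (quartiles 8 to 26). In hippocampi the 5 lower genes had a median of 25 CG (quartiles 3 to 26) and the 1 higher gene with a promoter had 23. The 48 tested there with a promoter had a median of 12.5 (quartiles 7.75 to 23.5). *Kcnj16*, with the fewest CG of the 4 shown, fell, and *Kcnj4*, with the most, rose, while *Kcnd2* (26 CG) and *Kcnj10* (21 CG) fell. In neurospheres *Kcna2*, with 31 CG, also fell, and *Kcnf1*, with 3 CG, rose. RefSeq has 4 promoters for *Kcnj16*, and only the nearest to the deposited gene start is shown. These counts are a description of the letters, since binding was not analysed here.

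In cKO hippocampi the A-type potassium channel gene *Kcnd2* fell, and the inward rectifier genes *Kcnj16* and *Kcnj6* and the Kv beta subunit genes *Kcnab1* and *Kcnab2* fell with it. *Kcnab3*, the remaining Kv beta subunit gene, and *Kcnh4*, of the ether-a-go-go family, were among those that rose. In all 8 of 76 tested channel genes were called, or 10.5%, against 6.14% of the 13446 genes tested. The 3 higher genes stand against a background of 3.89% higher and the 5 lower against 2.25% lower. With adjusted p-values at the same fold 5 genes remained, among them *Kcnh4* higher and *Kcnd2*, *Kcnj6* and *Kcnj16* lower, against a background of 4.41%.

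*Kcnd2* (ENSMUSG00000060882, chromosome 6, 21215503 to 21729805, GRCm38) was at 25.8, 30.2 and 27.5 FPKM in the control libraries and at 20.4, 16.7 and 14.99 FPKM in the cKO libraries. The groups did not overlap. The means were 27.9 ± 2.22 and 17.4 ± 2.78 FPKM (SD, n = 3 each), which is -0.66 as a log2 fold change (SE, the standard error, 0.10; adjusted p = 0.0080 from limma). Its auxiliary subunit gene *Kcnip3*, which binds Kv4 channels, was just under the fold threshold, at 15.1, 17.5 and 15.6 FPKM in controls and 11.8, 12.2 and 11.8 FPKM in the cKO. The log2 fold change came to -0.398 (adjusted p = 0.0115), and its groups did not overlap either. Other Kv4 partners did not pass the threshold: *Kcnip1* was at 0.11, *Kcnip2* at -0.15 and *Kcnip4* at -0.14 on the log2 fold change scale, and *Kcnd3*, another Kv4 pore gene, at 0.01. Outside the rule, the Kv4 auxiliary subunit gene *Dpp6* was also just under the fold threshold. It went from 32.6 to 24.6 FPKM (-0.393, adjusted p = 0.0028 from limma), while *Dpp10*, another such gene, was at -0.07.

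*Kcnq3*, a subunit of the M-type channel of neurons, was at -0.06 and was not called. *Kcnh4* was at 1.49, 1.03 and 1.33 FPKM in controls and 2.198, 2.21 and 1.97 FPKM in cKO hippocampi, again without overlap, with a log2 fold change of 0.46 (SE 0.11, adjusted p = 0.043). Of the other ether-a-go-go genes, *Kcnh2* was at 0.24 and *Kcnh3* at -0.09.

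Among the inward rectifiers, *Kcnj6*, a subunit of the channels opened by G proteins, was at 3.52, 3.81 and 3.40 FPKM in controls and 2.24, 2.72 and 2.35 FPKM in cKO hippocampi (log2 fold change -0.42, SE 0.0996, adjusted p = 0.036). *Kcnj16*, which pairs with *Kcnj10* in glia, was at 1.62, 1.88 and 1.796 FPKM in controls and 0.670, 0.769 and 1.30 FPKM in cKO hippocampi (log2 fold change -0.55, SE 0.14, adjusted p = 0.045). Neither gene's groups overlapped, although the third cKO library held more *Kcnj16* than the other two. All 11 tested inward rectifier genes had a negative log2 fold change, from -0.55 to -0.05 with a median of -0.14, of which 2 were called. *Kcnj3*, which joins *Kcnj6* in G-protein-gated channels, was at -0.22 (adjusted p = 0.17), and *Kcnj10* was at 9.70 ± 0.245 and 8.99 ± 0.148 FPKM (log2 fold change -0.10, adjusted p = 0.42). *Kcnj11*, the pore of the ATP-sensitive channel, was at -0.07.

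The Kv beta subunits, cytoplasmic partners of Kv1 channels, went both ways. *Kcnab2* went from 19.2 ± 4.23 to 12.9 ± 2.09 FPKM (log2 fold change -0.53, adjusted p = 0.057) and *Kcnab1* from 2.83 ± 0.0802 to 1.8004 ± 0.691 FPKM (-0.48, adjusted p = 0.10). *Kcnab3* went from 2.96 ± 0.821 to 4.88 ± 0.957 FPKM (0.58, adjusted p = 0.065; SD, n = 3 each), and its groups overlapped, with control library 1 at 3.90 FPKM and cKO library 2 at 3.83 FPKM. Exons of *Kcnab1*, *Kcnab3* and *Kcnj6* share bases with a gene on the opposite strand and those of *Kcnab2* with a gene on the same strand. Strand-specific counting is not stated, so reads of the partners could not be told apart. The Kv1 pore genes were not called: *Kcna1* was at 0.01, *Kcna2* at -0.05, *Kcna3* at -0.29 (adjusted p = 0.083), *Kcna4* at -0.21 and *Kcna6* at -0.16.

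Sodium channel genes stayed under the threshold in hippocampi. The 4 tested alpha subunit genes were all on the negative side, *Scn1a* at -0.15, *Scn3a* at -0.09, *Scn8a* at -0.08 and *Scn9a* at -0.20, with adjusted p from limma of 0.48 or more. *Scn2a1* (*Scn2a*), outside the rule, went from 16.1 ± 1.13 to 12.4 ± 1.46 FPKM (log2 fold change -0.35, adjusted p = 0.041) and was likewise not called. Of the beta subunit genes, *Scn3b* was at -0.21 (adjusted p = 0.074) and *Scn2b* at 0.09. Across all channel genes the log2 fold changes leaned to the negative side, 54 of 76 or 71.1% against 47.8% of all genes, with a median of -0.10 against 0.008. Groups did not overlap for 26 of them (34.2%, against 29.2% of all genes). The silent Kv subunit genes had 7 of 8 negative values with none called, and the two-pore genes 5 of 8 with none called, *Kcnk1* at -0.05 and *Kcnk2* at 0.09. *Kcnma1*, the BK channel pore, was at -0.30 (adjusted p = 0.052), *Kcnn2* at 0.06 and *Kcnc1* at -0.05. In bulk RNA, fewer cells of a type and less RNA per cell cannot be told apart.

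**Figure D1:**
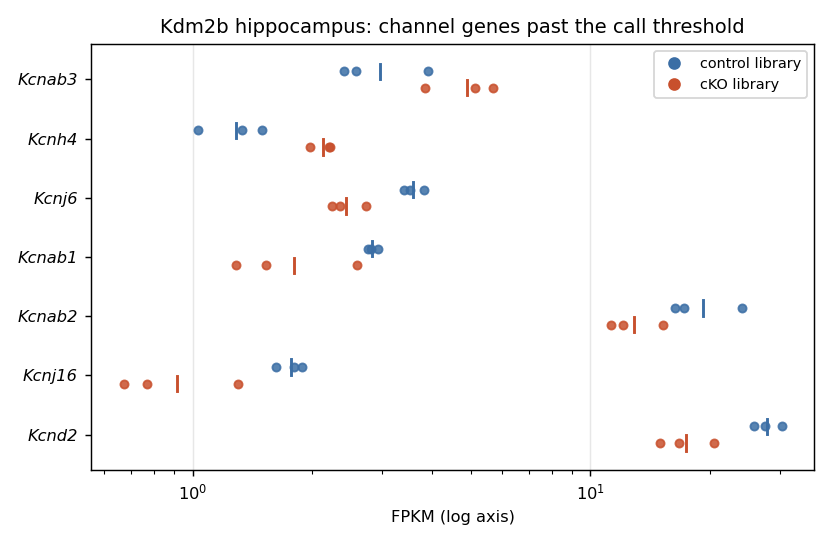
FPKM of 7 channel genes past the call threshold in Kdm2b hippocampi, on a log axis, with 1 point per library (blue, 3 controls; orange, 3 cKO) and a bar at the group mean. The cKO libraries lie above the controls for Kcnh4 and below them for the 5 lower genes, while the groups of Kcnab3 overlap.

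Markers of several cell types moved with these genes in hippocampi. Of 10 neuron markers none was called, but 8 were negative, and their summed level was 2616 to 2745 FPKM in control and 2084 to 2396 FPKM in cKO libraries. Of 8 glutamatergic neuron markers 3 were lower (*Camk2a*, *Slc17a7* and *Bcl11b*), with a summed level of 490.2 to 582.3 against 389.0 to 477.7 FPKM. In that list 6 values were negative and 2 positive, *Slc17a6* (0.34, adjusted p = 0.022 from limma) and *Tbr1* (0.27, adjusted p = 0.018). Both lay under the fold threshold. Of 10 progenitor markers 6 were higher (1011 to 1095 against 1058 to 1183 FPKM), as were 4 of 6 microglial markers (44.8 to 52.8 against 58.0 to 76.9 FPKM), 3 of 4 tested choroid plexus markers (5.62 to 17.2 against 8.06 to 61.4 FPKM) and 2 of 4 tested thalamic markers (26.8 to 29.7 against 36.4 to 41.2 FPKM). Of 8 astrocyte markers, *Aqp4* and *S100b* were lower, with overlapping sums of 346.9 to 376.9 and 351.9 to 455.6 FPKM. Of these 8, 5 were negative and 3 positive, among them *Slc1a3* (0.20, adjusted p = 0.045 from limma, under the fold threshold). *S100b* (0.920 and 0.453 FPKM in control and cKO, adjusted p = 0.0995 from limma) passed the filter through the control group, where it is high. *Clic6*, a higher choroid plexus marker (0.255 and 0.769 FPKM, adjusted p = 0.19 from limma), passed it through the cKO group. None of 9 GABAergic, 8 oligodendrocyte lineage, 9 vessel, 6 meningeal and 3 tested blood markers was called. No marker was at 0 in every hippocampal library. Their part in the channel results was not tested. The calls of *Kcnd2*, *Kcnj16* and *Kcnab3* held without each library in turn. *Kcnj6* fell below the fold threshold without control library 2 (-0.38), cKO library 1 (-0.37) or cKO library 3 (-0.399), *Kcnab2* and *Kcnh4* without control library 2 (-0.37 and 0.38), and *Kcnab1* lost its call without cKO library 1 (-0.35) or cKO library 2 (-0.42). With cKO library 1, the only one with high *Xist*, left out, there were 5 higher and 4 lower channel genes.

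More channel genes were called in neurospheres than in the other comparisons. The glial potassium channel genes *Kcnj10* and *Kcnj16*, the small-conductance calcium-activated channel gene *Kcnn2* and the Kv4 auxiliary gene *Kcnip2* fell, and *Kcnj4*, another inward rectifier, *Kcna1*, a Kv1 channel of axons, and *Kcnh2*, of the ether-a-go-go family, rose. Of 48 tested genes, 12 rose and 11 fell, or 47.9%, against 24.6% of the 12227 genes tested, 11.4% higher and 13.2% lower. At an adjusted p under 0.05 there were 16, 8 in each direction, against a background of 19.3%. The groups did not overlap for 38 of 48 (79.2%, against 66.4% of all genes), which include all 23 called. The median log2 fold change was -0.06 against -0.01 over all genes, and 52.1% were negative against 51.5%, so the called genes were spread over both directions. A total of 8 genes passed the filter through the group where they are high, and 4 of those were called (*Kcna1*, *Kcnn3*, *Scn1a* and *Scn3a*).

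*Kcnj10* (ENSMUSG00000044708, chromosome 1, 172341210 to 172374085), the main inward rectifier of astrocytes and oligodendrocytes, was at 36.3 and 41.1 FPKM in control and 12.4 and 8.74 FPKM in cKO neurospheres. The groups were apart by -1.79 on the log2 scale (SE 0.16, adjusted p = 0.0023). *Kcnj16* (ENSMUSG00000051497, chromosome 11, 110968033 to 111027968) was at 29.5 and 26.6 against 11.7 and 11.5 FPKM, or -1.21 on the log2 scale (SE 0.090, adjusted p = 0.0016). Both genes fell while the third tested inward rectifier rose: *Kcnj4* (ENSMUSG00000044216, chromosome 15, 79483714 to 79505241) was at 0.680 and 0.952 FPKM in controls and 3.12 and 3.94 FPKM in cKO neurospheres (log2 fold change 1.32, SE 0.17, adjusted p = 0.0058). The other 11 of 14 inward rectifier genes were under the filter, *Kcnj11* among them at 0.235 ± 0.106 and 0.181 ± 0.0768 FPKM.

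*Kcnn2* (ENSMUSG00000054477) was at 20.0 and 18.0 FPKM in control and 5.41 and 4.44 FPKM in cKO neurospheres (log2 fold change -1.76, SE 0.12, adjusted p = 0.0014). Its relative *Kcnn3* went the same way, from 1.44 ± 0.0714 to 0.453 ± 0.0867 FPKM (SD, n = 2 each; log2 fold change -0.75, adjusted p = 0.031), while *Kcnn1* was at -0.13. The BK channel pore *Kcnma1* was lower at 4.95 ± 0.145 and 2.96 ± 0.889 FPKM (-0.61, adjusted p = 0.059), whereas its beta subunit *Kcnmb4* was higher at 49.6 ± 13.4 and 68.9 ± 1.38 FPKM (0.49, adjusted p = 0.10). Exons of *Kcnn2*, *Kcnma1* and *Kcnmb4* share bases with genes on the opposite strand.

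*Kcnip2* (ENSMUSG00000025221, chromosome 19, 45791839 to 45816061) was at 11.7 and 7.17 FPKM in controls and 1.61 and 2.18 FPKM in cKO neurospheres (log2 fold change -1.82, SE 0.23, adjusted p = 0.0054). The Kv4 pore genes it serves did not follow it past the threshold, with *Kcnd2* at 55.1 ± 5.15 and 51.0 ± 3.76 FPKM (-0.11) and *Kcnd3* at 0.31, and neither did *Kcnip3* (-0.27) or *Kcnip1* (-0.27). The Kv beta subunit genes *Kcnab3* (0.91, adjusted p = 0.051) and *Kcnab2* (0.50, adjusted p = 0.022) were higher.

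Of the 19 tested Kv pore genes 5 rose and 2 fell, against 11.4% higher and 13.2% lower over all genes tested. *Kcna1* went from 0.494 ± 0.121 to 1.99 ± 0.0071 FPKM (log2 fold change 1.005, adjusted p = 0.011), and the related *Kcna3* (0.68) and *Kcna4* (0.54) were higher as well, with adjusted p of 0.057 and 0.051. *Kcna2*, of the same subfamily, was lower, from 23.2 ± 0.880 to 16.1 ± 0.189 FPKM (-0.50, adjusted p = 0.011). *Kcnh2* rose from 2.50 ± 0.155 to 5.29 ± 0.163 FPKM (0.85, adjusted p = 0.0070). *Kcnc4*, a fast Kv3 channel, fell from 2.89 ± 0.449 to 1.12 ± 0.114 FPKM (-0.87, adjusted p = 0.015), while *Kcnc1* of the same subfamily was at 0.32 (adjusted p = 0.047), under the fold threshold. The silent subunit *Kcnf1* (0.48, adjusted p = 0.049) and the leak channel *Kcnk1* (0.51, adjusted p = 0.049) were higher. *Kcnk2* and *Kcnq3* were at -0.03 and -0.08 and were not called.

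The 4 sodium channel alpha genes tested here, which are not the same 4 as in hippocampi, were all negative, against 51.5% of all genes. Of these, *Scn1a* and *Scn3a* were called, with 13.2% of all genes called lower. Both passed the filter through the control group, where they are high, so their sign follows from how they were admitted. *Scn3a*, the alpha subunit of embryonic and newborn brain, was at 1.59 and 0.811 FPKM in control and 0.108 and 0.170 FPKM in cKO neurospheres (log2 fold change -0.93, SE 0.24, adjusted p = 0.042). *Scn1a* was at 0.920 ± 0.161 and 0.290 ± 0.154 FPKM (-0.58, adjusted p = 0.093 from limma) and *Scn8a* at 10.3 ± 0.904 and 8.50 ± 0.682 FPKM (-0.26, not called). *Scn2a1*, outside the rule and not 1 of the 4, was at 2.11 ± 0.489 and 1.10 ± 0.471 FPKM (-0.58, adjusted p = 0.12 from limma). The beta subunit gene *Scn3b* was lower, from 5.97 ± 0.502 to 4.04 ± 0.619 FPKM (-0.47, adjusted p = 0.057). *Scn2b* was under the filter, at 0.406 ± 0.148 and 0.0891 ± 0.0001 FPKM.

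**Figure D2:**
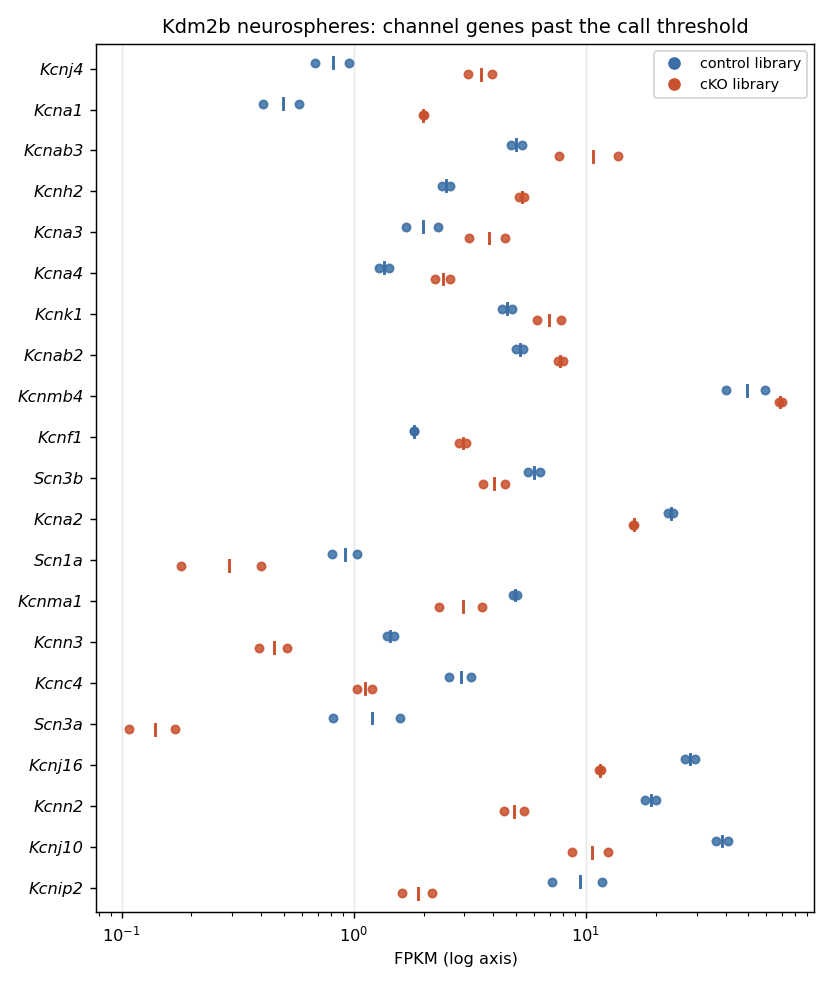
FPKM of 21 channel genes past the call threshold in Kdm2b neurospheres, on a log axis, with 1 point per library (blue, 2 controls; orange, 2 cKO) and a bar at the group mean. The groups do not overlap for any of them, and the widest gaps are those of Scn3a, Kcnip2, Kcnj4, Kcna1, Kcnn2 and Kcnj10.

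Glial markers moved with the glial channel genes in neurospheres. Of 8 astrocyte markers 7 were lower (*Gja1*, *S100b*, *Aldh1l1*, *Gfap*, *Aldoc*, *Aqp4* and *Slc1a2*), with a summed level of 877.9 to 926.5 FPKM in control and 499.8 to 536.7 FPKM in cKO libraries. Of 8 oligodendrocyte lineage markers 6 were lower (among them *Gpr17*, *Mbp*, *Pdgfra*, *Sox10* and *Cspg4*) (2533 to 2585 against 2460 to 2523 FPKM), while *Olig1* and *Olig2* were not called. Of 10 progenitor markers 3 were higher and 2 lower (3748 to 4174 against 5197 to 7056 FPKM), and of 10 neuron markers 4 were higher and 3 lower (332.2 to 337.9 against 346.6 to 378.0 FPKM). *Dlx1* and *Dlx2* of the GABAergic list were higher (42.7 to 43.0 against 54.9 to 56.3 FPKM for the list). *Aif1* and *Trem2* of microglia, *Anpep* and *Cldn5* of vessels and *Alas2* of blood were at 0 in every neurosphere library. The part of these markers in the channel results was not tested.

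Leaving out control library 1, the one that stood apart, left 11 higher and 8 lower channel genes, with *Kcnf1* (0.49), *Kcnma1* (-0.58) and *Scn3b* (-0.397) no longer called, *Scn1a* and *Scn3a* under the filter and so not tested, and *Kcnip1* (-0.46) newly called. Leaving out control library 2 left 6 higher and 9 lower, with *Kcna3* (0.53), *Kcna4* (0.50), *Kcnab3* (0.85), *Kcnf1* (0.48), *Kcnk1* (0.45), *Kcnmb4* (0.22), *Kcnma1* (-0.63) and *Scn1a* (-0.66) no longer called. Without cKO library 1, *Kcnk1* (0.36), *Scn1a* (-0.45) and *Scn3b* (-0.34) lost their call, and without cKO library 2, *Kcnma1* (-0.38) and *Kcnmb4* (0.47) did. Of the 21 called genes named here 11, including *Kcnj10*, *Kcnj16*, *Kcnj4*, *Kcnn2*, *Kcnip2* and *Kcnh2*, kept it each time, and *Scn3a* kept it in the 3 runs in which it was tested. After scaling every library to one FPKM total, *Kcna2* (-0.39), *Kcnma1* (-0.51) and *Scn3b* (-0.37) lost their call.

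**Figure D3:**
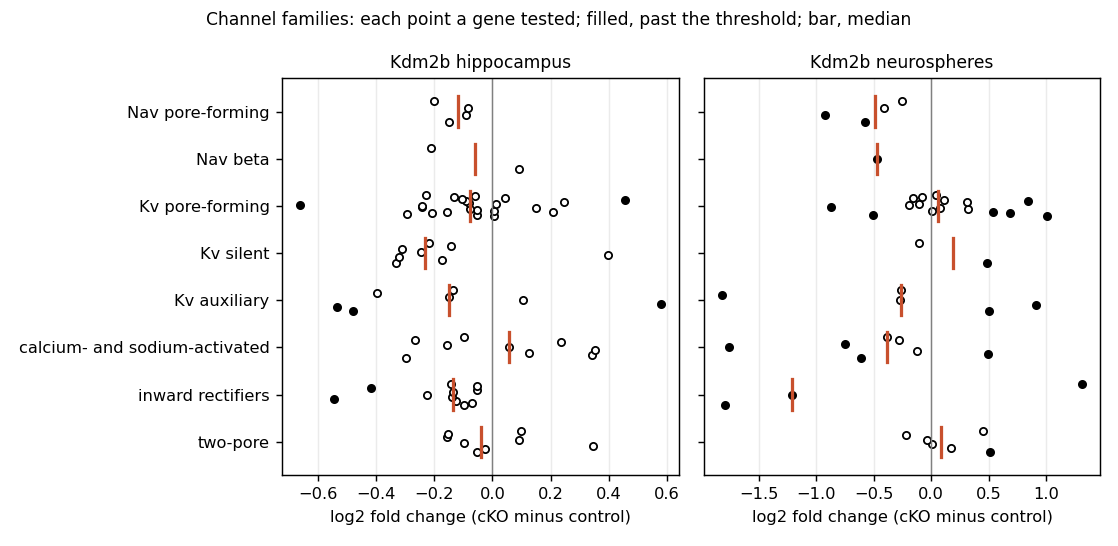
Log2 fold change (cKO minus control) of the tested channel genes reported here, by subfamily, in Kdm2b hippocampi (left) and neurospheres (right). Filled points are past the call threshold, open points are not, and the orange bar is the median of the points drawn. In hippocampi the 11 inward rectifiers all lie below 0, and in neurospheres the 3 tested range from -1.79 to 1.32.

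Few channel genes were called in cortices. *Kcnab3*, *Kcnn1*, a small-conductance calcium-activated channel gene, and *Kcna1* were higher in cKO cortices, and *Kcnip3* and *Scn3a* were lower. These 5 of 65 make 7.69%, against 7.01% of the 15691 genes tested, with 4.73% higher and 2.28% lower. None passed an adjusted p under 0.05 in limma, against 0.427% of all genes. The groups did not overlap for 38 channel genes (58.5%, against 44.8%), and 38.5% of the log2 fold changes were negative against 51.3%, with a median of 0.02 against -0.005.

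*Kcnn1* (ENSMUSG00000002908, chromosome 8, 70842049 to 70863258) was at 3.09 and 3.61 FPKM in control and 5.72 and 5.26 FPKM in cKO cortices, from 312, 352, 515 and 451 reads. Its log2 fold change was 0.58 (SE 0.10, adjusted p = 0.12 from limma). *Scn3a* (ENSMUSG00000057182, chromosome 2, 65457118 to 65567627) was at 11.9975 and 13.7 FPKM in control and 9.44 and 9.47 FPKM in cKO cortices, from 3294, 3640, 2310 and 2206 reads (-0.405, SE 0.090, adjusted p = 0.19). *Kcnn3*, just under the fold threshold at -0.394 (adjusted p = 0.197), was at 3.89 and 3.87 against 2.85 and 2.58 FPKM. Each of these 3 genes had groups apart by more than the spread within them.

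*Kcna1* was at 1.79 and 1.91 FPKM in control and 3.36 and 2.65 FPKM in cKO cortices (0.48), *Kcnip3* at 9.67 and 8.58 against 5.89 and 7.06 FPKM (-0.44) and *Kcnab3* at 2.60 and 4.02 against 5.42 and 5.82 FPKM (0.64), with adjusted p from limma of 0.23, 0.23 and 0.25. The *Kcnab3* values rest on 164, 245, 305 and 312 reads. Exons of *Kcnn1* and *Kcnab3* share bases with an opposite-strand gene. *Kcnd2*, which fell in hippocampi, was at 2.82 ± 0.0929 and 2.87 ± 0.429 FPKM (0.01) and *Scn2a* at 8.46 ± 1.396 and 8.53 ± 0.284 FPKM (0.02). *Scn1a*, *Scn8a* and *Scn3b* were at -0.06, 0.06 and -0.16, *Scn2b* at -0.25 and *Kcnk2* at 0.20 (adjusted p = 0.34), none called. *Kcnq3*, *Kcnc1*, *Kcna2*, *Kcnk1*, *Kcnma1*, *Kcnj11* and *Kcnip1* lay between -0.03 and 0.06, and *Kcnj10* (-0.20) and *Kcnn2* (0.20) were also not called. Only *Kcnn1* kept its call without each library. *Kcnab3* lost it without control library 1 (0.398), cKO library 1 (0.68) or cKO library 2 (0.595), *Kcnip3* without control library 1 (-0.36) or cKO library 1 (-0.33), *Scn3a* without control library 2 (-0.31) and *Kcna1* without cKO library 1 (0.36). In cKO cortices all 6 meningeal markers were higher (1.19 to 1.92 against 19.6 to 29.9 FPKM summed), with 4.73% of all genes called higher. At control sums this low, some of the 6 passed the filter through the cKO group, where they are high, which partly sets their count. Also higher were 4 of 9 vessel markers (56.9 to 57.2 against 88.3 to 96.8 FPKM), 3 of 5 blood markers (435.0 to 453.6 against 623.1 to 711.3 FPKM) and 3 of 5 tested microglial markers (11.5 to 13.5 against 19.5 to 26.2 FPKM). Of 10 neuron markers *Nefl* and *Nefm* were lower (1807 to 1859 against 1674 to 1692 FPKM). Their part in the channel results was not tested.

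In *Rnf2* cKO hippocampi 1 of 73 tested channel genes was called, in the higher direction. That is 1.37%, against 4.71% of the 15764 genes tested, 2.86% higher and 1.85% lower, and no channel gene had an adjusted p under 0.05 in limma. No channel gene was called lower, and *Kcne2*, an auxiliary subunit gene that passed the filter through 1 cKO library, was past the fold threshold without the call, at 0.57 (adjusted p = 0.83), with 2.43 FPKM in cKO library 1 and 0.105 FPKM in cKO library 2. Other values near or past that threshold without the call were *Kcnip1* at 0.398 (adjusted p = 0.68), *Kcnh2* at 0.39 (adjusted p = 0.68) and *Kcnj12* at -0.41 (adjusted p = 0.73).

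*Kcnd2* was at 25.7 ± 3.96 and 20.6 ± 4.76 FPKM in *Rnf2* control and cKO hippocampi (SD, n = 2 each; log2 fold change -0.31, adjusted p = 0.76), with overlapping groups, and *Scn2a* at 9.48 ± 0.946 and 7.17 ± 1.31 FPKM (-0.37, adjusted p = 0.71). *Kcnj10* was at -0.20, *Kcnj16* at -0.09 and *Kcnj6* at -0.09. *Scn3b* was at 47.9 ± 4.52 and 47.9 ± 0.794 FPKM (0.003), and *Scn1a*, *Scn3a* and *Scn8a* were at -0.01, -0.14 and -0.16. *Kcna2* was at -0.30 and *Kcna1* at 0.19, and *Kcnc1* and *Kcnk1* at 0.21 and 0.12. *Kcnq3*, *Kcnj11* and *Scn2b* lay between -0.03 and -0.02, and *Kcnk2*, *Kcnma1* and *Kcnn2* between -0.18 and -0.09. None of these passed the threshold. Of the channel genes 60.3% were negative, against 50.1% of all genes, and the groups did not overlap for 26% (19 genes), against 38.3%. The 11 tested inward rectifiers had 10 negative values and a median of -0.09. Of 6 meningeal markers 3 were lower (29.3 to 29.8 against 13.7 to 21.3 FPKM summed) and of 9 vessel markers 2 (119.3 to 134.0 against 96.5 to 97.9 FPKM), and the choroid plexus sum ran from 13.3 to 51.3 FPKM in control and from 8.96 to 243.8 FPKM in cKO libraries. Their part in the result was not tested.

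**Figure D4:**
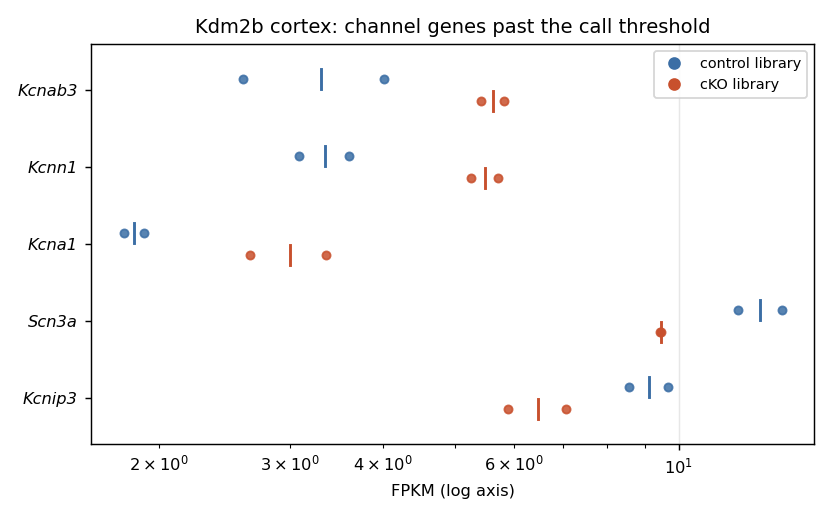
FPKM of the 5 channel genes past the call threshold in Kdm2b cortices, on a log axis, with 1 point per library and a bar at the group mean. The control (blue) and cKO (orange) points of each gene lie apart, with 2 libraries per group.

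Over the 4 comparisons 29 channel genes were called at least once, 6 of them in 2 or more comparisons. The matching shares over all genes were not counted, so these numbers only describe the list. *Kcnab3* was higher in *Kdm2b* hippocampi, neurospheres and cortices (0.58, 0.91 and 0.64, with adjusted p from limma of 0.065, 0.051 and 0.25). It was at 0.14 in *Rnf2* hippocampi. *Kcna1* was higher in neurospheres and cortices, *Scn3a* lower in both, and *Kcnj16* lower in hippocampi and neurospheres. In neurospheres *Kcna1* and *Scn3a* passed the filter through the group where they are high. In cortices their adjusted p from limma was 0.23 and 0.19. *Kcnab2* alone was called in opposite directions, lower in hippocampi (-0.53) and higher in neurospheres (0.50). *Kcnip3* had negative values in all 4 comparisons (-0.40, -0.27, -0.44 and -0.09) and passed the threshold in cortices only, which does not show that the comparisons differ.

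Whether an effect differed from one comparison to another was tested as a genotype by table interaction. Between neurospheres and hippocampi of the *Kdm2b* cKO, 19 of 43 channel genes tested in both differed at an adjusted p under 0.05 (44.2%, against 26.9% of all genes). Estimates had opposite signs for 10 of these, and the share over all genes was not counted. Their hippocampal values include some near 0 (*Kcnn2* 0.06, *Kcnk1* -0.05 and *Kcnc1* -0.05), and only *Kcnab2* was called in opposite directions. *Kcnn2* differed most, at -1.76 in neurospheres and 0.06 in hippocampi (difference -1.82, SE 0.16, adjusted p = 4.01e-05 from limma), followed by *Kcnj10* (-1.79 and -0.10, adjusted p = 5.63e-05). *Kcnab2* (0.50 and -0.53, adjusted p = 0.0056) and *Kcnj4* (1.32 and -0.14, adjusted p = 0.00081) differed in the other direction, and *Kcnd2* was lower in hippocampi than in neurospheres in its effect (-0.66 and -0.11, adjusted p = 0.029). For *Kcnab3* (adjusted p = 0.48) the effects were not found to differ. Between cortices and hippocampi 0 of 60 channel genes differed in limma at an adjusted p under 0.05 (background 1.61%), with 9 at an unadjusted p under 0.05, and *Kcnd2* had the smallest adjusted p, 0.076. Between *Rnf2* and *Kdm2b* hippocampi 0 of 68 differed (background 0.683%), with 3 at an unadjusted p under 0.05, and the smallest adjusted p was 0.090 for *Kcnk12*, a two-pore channel gene.

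**Figure D5:**
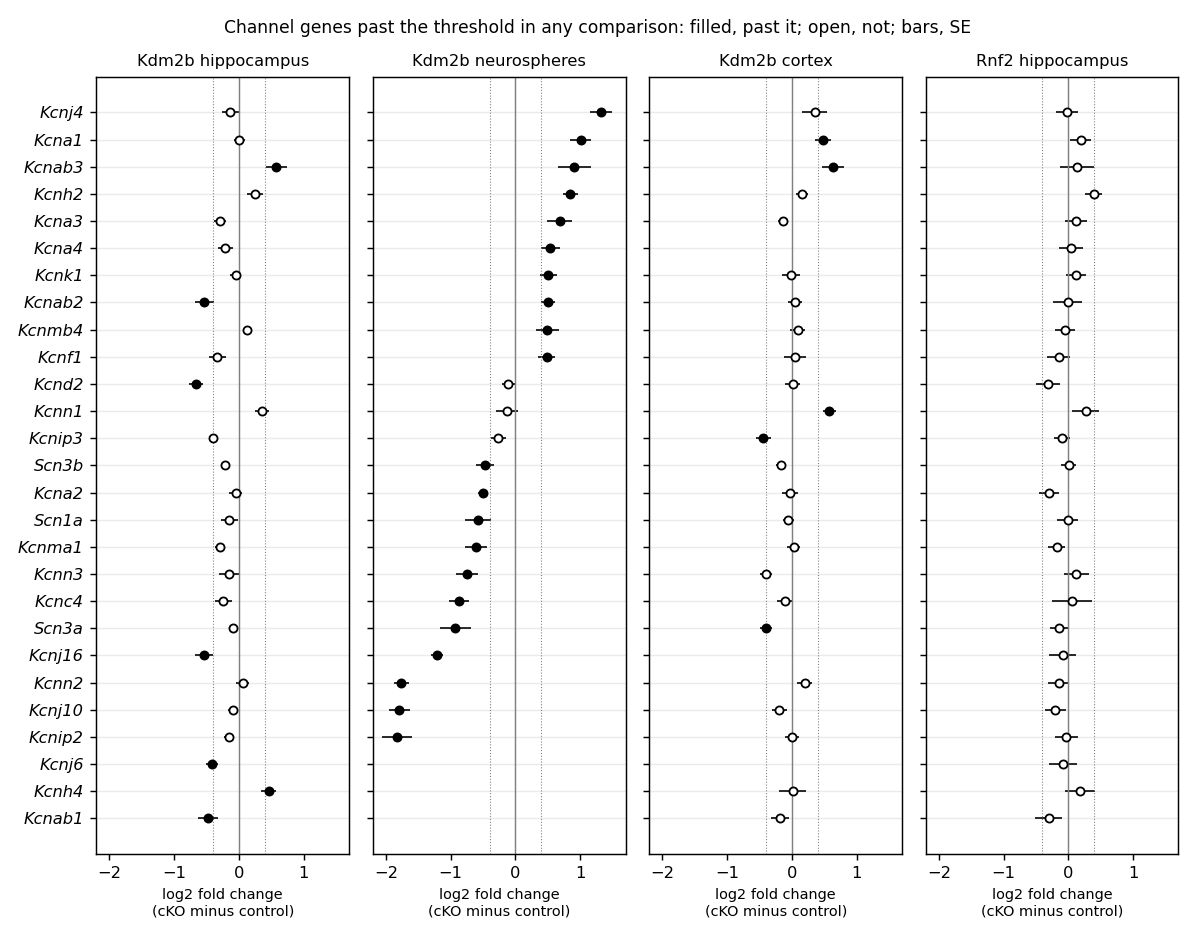
Log2 fold change (cKO minus control, with its standard error as a bar) of 27 channel genes called in any comparison, in 4 panels. Filled points are past the threshold, open points are not, dotted lines mark 0.4 in both directions, and a gene with no point was under the filter. The neurosphere panel spreads from -1.82 (Kcnip2) to 1.32 (Kcnj4), whereas the other panels stay within -0.66 and 0.64.

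A list of 50 other genes of membrane excitability (calcium channel subunits, HCN channels, sodium pumps, axonal anchors and Kv4 partners) was read the same way. In hippocampi all 50 were tested, with 1 higher and 2 lower, against 3.89% and 2.25% of all genes. *Cacna2d2*, a calcium channel subunit, was higher (0.53, adjusted p = 0.019 from limma). *Fxyd7*, a sodium pump regulator (-0.89, adjusted p = 0.0047), and *Cacng8*, an AMPA receptor auxiliary subunit (-0.48, adjusted p = 0.0081), were lower. In neurospheres 6 of 40 were higher and 10 lower, against 11.4% and 13.2% of all genes. *Atp1b2*, a sodium pump beta subunit, went from 272.0 to 128.8 FPKM (-1.07). *Dpp6* and *Dpp10*, further auxiliary subunits of Kv4 channels, were at -1.17 and -0.93, and *Nfasc*, *Ank2* and *Ank3*, which hold channels at the axon initial segment and nodes, at -1.49, -1.30 and -1.26. *Nalcn*, the sodium leak channel, was at -1.28. *Cacnb3* (1.11), *Cacna1g* (0.97), *Cacna2d2* (0.88) and *Hcn2* (0.78) were higher. *Cacna1g*, at 0.363 FPKM in control and 1.75 FPKM in cKO neurospheres, passed the filter through the cKO group, where it is high (adjusted p = 0.053 from limma). In cortices 3 of 48 were higher, among them *Hcn2* (0.76) and *Cacna1g* (0.51), and 0 lower, none with an adjusted p under 0.05. Over all genes the cortical shares were 4.73% higher and 2.28% lower. In *Rnf2* hippocampi 1 of 50 was lower and 0 were higher, against 1.85% and 2.86% of all genes.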

How the data were processed

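Libraries were grouped by their deposited labels. For hippocampi and neurospheres the deposited values are FPKM that the authors made with Cufflinks 2.2.1 from poly(A) paired-end reads, after trimming (cutadapt) and alignment to mm10 (STAR). The cortical and *Rnf2* tables hold FPKM as deposited with Ensembl IDs and gene lengths, and their pipeline is not given separately in the sources used here. FPKM times length was a whole multiple of 1 read within 0.05 reads for 100% of values under 1000 reads in those 8 libraries, which gave the reads per gene.

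Entries with no gene name were left out (2861 of 27180 in hippocampi, 2059 of 26293 in neurospheres, 140 of 54672 in cortices), and each name kept its entry of highest mean. The test was limma (version 3.58.1, under R 4.3.3; lmFit, then eBayes with a trend) on log2(FPKM + 1) for means of 0.5 FPKM or more, each comparison over all its genes with Benjamini-Hochberg adjustment. Differences between comparisons used the interaction of genotype and table. The rule named all called channel genes and 22 fixed ones, of which a few are not reported here (they stay in the counts), and values per library were given for up to 5 called genes of smallest p. No count test was the main test, since the unit is FPKM, and limma-voom on the recovered reads was an alternative. The other alternatives were a pseudocount of 0.1, no filter, a filter of 1 FPKM, scaling to the same FPKM total or by median ratio, adjusted p-values, no trend, a block on the replicate number, summed entries and each library left out. A crossed pairing in neurospheres was added after seeing the data.

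The members, lists and tests were chosen with earlier results of these data known. Scripts were tested on simulated data. Coordinates were compared with GENCODE M21 (GRCm38), where 104 of 104 IDs were found, 100 with the same coordinates, and 28 channel genes share exon bases with another gene, 26 of them on the opposite strand. The promoters are RefSeq's (GRCm38.p6), and 34 of the 104 genes have none that was used.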

Additional observations from a re-analysis of the deposited data

Results flagged for a closer look

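For 19 channel genes the effect of the *Kdm2b* cKO differed between neurospheres and hippocampi, by the interaction of genotype and table in limma at an adjusted p under 0.05 over all genes tested in both. The difference is given as the log2 fold change in neurospheres minus that in hippocampi. It was positive for 11 genes. Among these were *Kcnj4* (1.45), *Kcnab2* (1.04), *Kcna1* (1.00), *Kcna3* (0.97), *Kcnf1* (0.82), *Kcna4* (0.75), *Kcnh2* (0.60), *Kcnk1* (0.56), *Kcnd2* (0.55) and *Kcnc1* (0.38). It was negative for 8 genes, namely *Kcnn2* (-1.82), *Kcnj10* (-1.70), *Kcnip2* (-1.67), *Scn3a* (-0.84), *Kcnj16* (-0.66), *Kcnc4* (-0.63), *Kcnt1* (-0.52) and *Kcna2* (-0.45). The tables were normalized separately and tissue was set against culture, so the difference is between those preparations as well as between their cells. *Kcnt1* passed the filter in neurospheres through the control group, where it is high, and *Kcna1* and *Scn3a* each through the group where they are high.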

How the results depend on the processing

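The mapped depth of each library is unknown for hippocampi and neurospheres, and 3 of the 4 comparisons have 2 libraries per group. A library left out there leaves a lone one, which is assumed to vary like the other group. Adjusted p-values left 2 higher and 3 lower channel genes in hippocampi, 8 and 8 in neurospheres, and 0 in cortices and in *Rnf2* hippocampi.

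With a pseudocount of 0.1, 6 channel genes were higher and 7 lower in hippocampi and 3 higher in *Rnf2* hippocampi. With no filter 0 were higher in *Rnf2* hippocampi, and without a trend 0 were higher and 1 lower there. With limma-voom on recovered reads 6 were higher and 4 lower in cortices and 4 higher and 2 lower in *Rnf2* hippocampi. The median log2 fold change of channel genes in neurospheres became -0.0148 with no filter, 0.0201 with a filter of 1 FPKM and 0.0446 with the same FPKM total, which also moved the median of all genes to 0.094. In cortices it became -0.0051 with the same FPKM total. The cause of these shifts was not tested.

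With each library left out in turn, 3 to 5 channel genes were higher and 3 to 6 lower in hippocampi, 6 to 13 and 8 to 13 in neurospheres, 1 to 6 and 1 to 2 in cortices, and 0 to 3 higher in *Rnf2* hippocampi. The median ran from -0.1008 to 0.0341 in neurospheres and from -0.075 to 0.0209 in *Rnf2* hippocampi.

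The libraries share replicate numbers but not by a stated pairing. Deviations of same-numbered libraries correlated at 0.049, -0.10 and -0.086 in hippocampi, -0.28 in neurospheres, -0.053 in cortices and 0.16 in *Rnf2* hippocampi. With the replicate number as a block, 3 channel genes were higher and 5 lower in hippocampi, 12 and 10 in neurospheres, 3 and 2 in cortices and 1 and 0 in *Rnf2* hippocampi, and 17 differed between neurospheres and hippocampi. The one call lost under the block was that of *Scn1a* in neurospheres (-0.58). The crossed pairing in neurospheres gave 12 higher and 11 lower.

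Values that were not called and lie near 0 changed sign. Under the same FPKM total these were *Kcnd2* (0.0105), *Kcnk2* (0.0798) and *Kcnq3* (0.0128) in neurospheres and *Kcnc1* (-0.0178), *Kcnd2* (-0.0183), *Kcnma1* (-0.0072) and *Scn2a* (-0.0211) in cortices. With a library left out the values in hippocampi ran from -0.0224 to 0.0578 for *Kcna1*, -0.1037 to 0.0093 for *Kcna2*, -0.1462 to 0.0132 for *Kcnj11*, -0.1168 to 0.0232 for *Kcnk1*, -0.0375 to 0.1634 for *Kcnn2*, -0.1131 to 0.33 for *Scn2b* and -0.1362 to 0.0146 for *Scn8a*. In neurospheres they ran from -0.105 to 0.0369 for *Kcnk2*. In cortices they ran from -0.0702 to 0.0094 for *Kcna2*, -0.0987 to 0.1276 for *Kcnd2*, -0.0748 to 0.1916 for *Kcnj11*, -0.1842 to 0.1547 for *Kcnk1*, -0.044 to 0.0937 for *Kcnma1*, -0.1521 to 0.0997 for *Kcnq3* and -0.1325 to 0.1697 for *Scn2a*. In *Rnf2* hippocampi they ran from -0.2089 to 0.1602 for *Kcnj11*, -0.0797 to 0.3121 for *Kcnk1*, -0.2929 to 0.25 for *Kcnq3*, -0.057 to 0.0395 for *Scn1a*, -0.26 to 0.1917 for *Scn2b* and -0.0914 to 0.0972 for *Scn3b*. No called channel gene changed sign under any alternative run. Of the values of the genes named here under the alternatives, 1164 kept their direction and side of the threshold, 51 lost a call, 5 gained one and 43 changed sign.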
